A study of Mus musculus with 4 samples.

Results

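Classical monocytes in mouse blood were examined after the barcodes that carried the platelet transcripts Pf4 or Ppbp had been set aside. Cells were chosen by their own transcripts. A barcode needed 200 or more genes, no more than 10% of transcripts from mitochondria and at least 3 of the 6 genes Ly6c2, Ccr2, F13a1, Csf1r, Fn1 and Vcan. It could have no transcript of Ace or Treml4 (non-classical monocytes), of Cd79a or Cd3e (B and T cells) or of Pf4 or Ppbp and at most 2 transcripts of Retnlg and Csf3r together (neutrophils). The rule took 119 barcodes of the 21626 that passed the filter on genes and mitochondrial transcripts in both blood libraries (49121 with the lung libraries), 66 from mice with liver metastases and 53 from sham mice. They are called Pf4/Ppbp-negative monocytes here. Since the rule reads transcripts, the levels of its own genes describe the choice and support nothing.

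The mice were female C57/Bl6 animals 6 to 8 weeks old. On day 0 the metastasis arm received 800000 cells of B16F10, a mouse melanoma line, into the spleen and the sham arm saline, and the spleen was removed at once in both arms. Every animal in both arms also received 250000 B16F10 cells under the skin, so sham mice were tumour-bearing as well, and tissue was taken on day 7. Each tissue and arm had 1 droplet library, made from CD45-enriched cells, and how many mice went into a library is not stated in the sources used here. With 1 library per group no difference has a replicate check and no p-value was computed. All 95% intervals given (exact conditional binomial for ratios, exact Clopper-Pearson for shares) cover counting error only.

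Classical monocytes leave the bone marrow through the chemokine receptor Ccr2, circulate briefly, and enter inflamed tissue, where they give rise to macrophages and dendritic-like cells, or mature in the blood into patrolling non-classical monocytes that gain Cx3cr1 and lose Ly6c2. In inflammation the marrow can release monocytes that express neutrophil-associated genes such as Chil3, S100a8, Lcn2 and Saa3. Others express class II MHC genes and Cd209a and are called dendritic-like. The comparison of the arms asks what the circulating monocyte, free of attached platelets as far as Pf4 and Ppbp show it, looked like while the liver carried tumour.

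The label was checked against marker lists, some of which hold genes that the rule sets low or at 0 (Cd79a, Cd3e, Pf4, Ppbp and Retnlg), so their sums are partly fixed by the choice of cells. All 30 monocyte genes of a list outside the rule were measured in these cells, and Lyz2, the lysozyme gene of monocytes and macrophages, was the second most abundant transcript without haemoglobin. Lyz2 reached 18279 CPM (counts scaled to a total of 1000000, here without haemoglobin transcripts) in metastasis blood and 26807 in sham blood, and had a transcript in 65 of 66 and 51 of 53 cells. The B cell genes Ms4a1 and Pax5 had no transcript in either library, and the 12 B cell markers summed to 85.7 and 129 CPM. T cell markers had 1 and 31 transcripts, 27 of the 31 in 1 sham barcode. Of 14 dendritic cell markers, 9 and 12 had a transcript, with sums of 2450 and 2881 CPM and 5 or more UMIs in 59 of 66 and 48 of 53 cells. That list holds genes that monocytes also express, such as Cst3 and Irf8. Xcr1 was at 0 in both libraries, and Flt3 had a transcript in both. Zbtb46, Clec9a, Cd209a and Ccr7 were at 0 in metastasis but had a transcript in sham monocytes, and Siglech was at 0 in sham monocytes only. Of 15 neutrophil markers, 8 had a transcript in metastasis and 10 in sham monocytes, and Mmp9, Camp, Ltf, G0s2 and Ly6g were at 0 in both. The neutrophil markers summed to 941 CPM in metastasis and 475 CPM in sham monocytes. Of 17 platelet markers, 9 and 10 had a transcript, with a sum of 1207 and 957 CPM, and this list holds genes that monocytes also express, such as Cd9 and Rap1b. Apart from Cd9 and Rap1b, no platelet marker was detected in 48 and 39 of the cells.

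The metastasis and sham monocytes held 455137 and 432345 transcripts (UMIs), with medians of 6809.5 and 7855 per cell and 2404.5 and 2494 genes. Haemoglobin transcripts made up 7.73% and 3.11% of their UMIs, and 7 and 3 cells exceeded 5%. Gm42418, a gene model that collects ribosomal RNA sequence, took 25689 CPM in metastasis and 37349 CPM in sham monocytes. The blood libraries shared 109 barcode sequences, none of them between the metastasis and sham monocytes. Near the marker threshold, 10 metastasis and 4 sham cells had exactly 3 of the 6 genes, with Lyz2 at 11616 and 13664 CPM, and the 7 and 42 barcodes with 2 of the 6, left out, had Lyz2 at 3581 and 647 CPM.

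Pf4/Ppbp-negative monocytes took a larger share of the kept barcodes in the metastasis than in the sham blood library. They were 66 of 8597 kept barcodes, 0.768% (0.594 to 0.976), against 53 of 13029, 0.407% (0.305 to 0.532), a 1.89-fold higher share (1.29 to 2.76). The difference depended on the threshold: with at least 2 of the 6 marker genes, 73 and 95 cells were taken and the ratio was 1.16 (0.846 to 1.6), and with a minimum of 100 genes in place of 200 it was 1.43 (0.980 to 2.09). The other kept barcodes differed as well, and a share does not give the number of monocytes in blood. Metastasis and sham blood held 1114 and 6622 barcodes classed as B cells, 332 and 1732 as T cells, and 1197 and 200 as neutrophils. The part of these differences in the ratio was not tested. Metastasis blood held 3435 barcodes with over 50% haemoglobin and sham blood 738. Among the barcodes with under 50% haemoglobin, the shares were 1.24% and 0.431%, a 2.88-fold difference (1.97 to 4.22). Monocytes that carried Pf4 or Ppbp were higher in share by a similar factor, 2.03-fold (1.54 to 2.68; 126 and 94 cells). Among all classical monocytes of the rule with and without platelet transcripts, the Pf4/Ppbp-negative ones therefore made up 34.4% (66 of 192; 27.7 to 41.6) in metastasis and 36.1% (53 of 147; 28.3 to 44.4) in sham blood. The ratio of these shares was 0.953, with an interval of 0.654 to 1.40 that spans equality. In lung, the same rule found 68 and 27 cells, a 2.66-fold higher share of kept barcodes in the metastasis library (1.68 to 4.33).

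The genes that chose the cells did not move in 1 direction. Ly6c2, the surface antigen of the classical subset, stood at 924 CPM in metastasis and 1182 CPM in sham monocytes. F13a1, the coagulation factor XIII A chain, stood at 519 and 838 CPM, and Fn1, fibronectin, at 843 and 1160 CPM. Ccr2 was at 791 and 745 CPM, Csf1r, the receptor for the monocyte growth factor Csf1, at 350 and 403 CPM, and Vcan, versican, at 271 and 248 CPM.

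Of 2650 genes measured (50 or more UMIs in the 2 libraries together, with a mean CPM of 20 or above), 46 were at least 2-fold higher in metastasis monocytes with an interval that excluded equality, which is 1.74% of the genes, and 24 were lower, 0.906%. The median log2 ratio over all measured genes was 0.06. With haemoglobin kept in the total, the split was 37 higher and 30 lower. Alas2, Bpgm, Epb41, Mkrn1 and Hagh, which red cell precursors express, were among the genes higher in metastasis monocytes, whose haemoglobin share was also higher. Without the cells over 5% haemoglobin, 42 genes were higher and 25 lower. Most genes thus stayed near the diagonal in the plot of CPM in the 2 libraries.

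**Figure D1:**
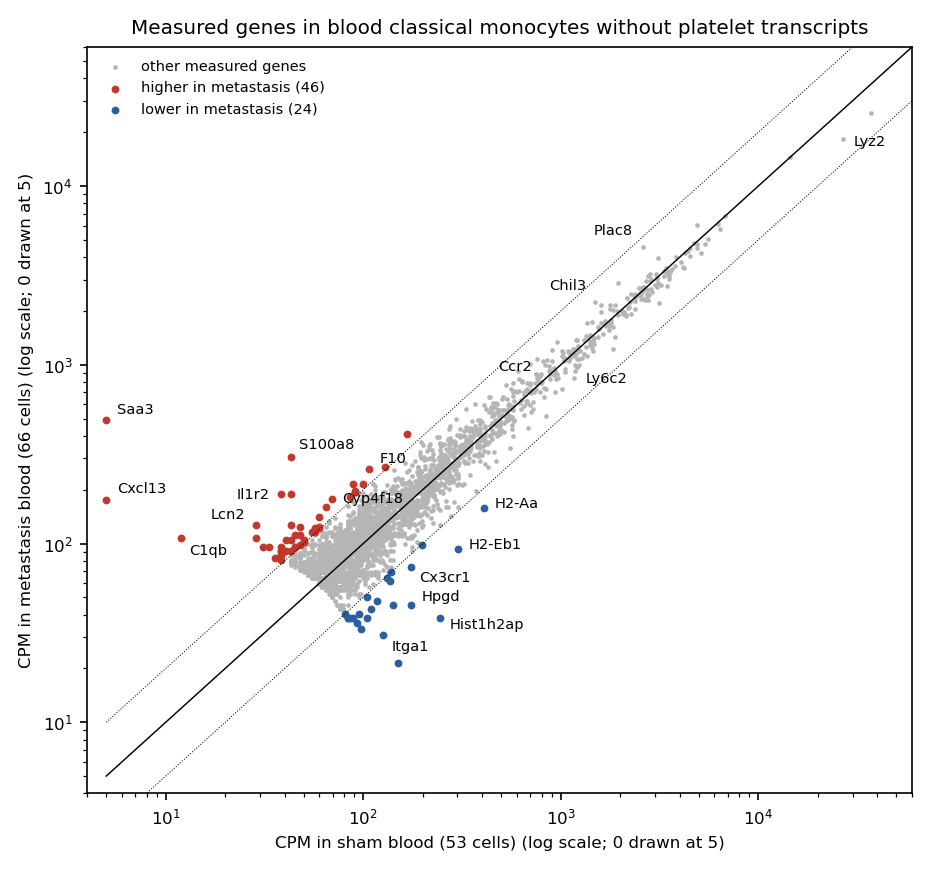
CPM without haemoglobin of each of the 2650 measured genes in Pf4/Ppbp-negative monocytes of sham blood (x axis, 53 cells) and metastasis blood (y axis, 66 cells), on log axes with 0 drawn at 5 CPM; the solid line marks equality and the dotted lines 2-fold. The 46 genes called higher are red and the 24 called lower are blue; Saa3 and Cxcl13 had no UMI in sham blood.

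Genes of the acute phase and of neutrophil-like monocytes were among the most different on the higher side. Of these, S100a8, Lcn2 and Il1r2 had under 0.25 of the CPM of another blood class, the limit set here against free RNA, and are given as genes of the lists. S100a8, a subunit of the secreted alarmin calprotectin, had 128 UMIs in metastasis and 18 UMIs in sham monocytes, or 305 and 43.0 CPM (log2 ratio 2.83, 2.11 to 3.63). It was detected in 25 of 66 cells against 4 of 53 cells. Most of the metastasis cells with S100a8 had 1 UMI of it, while 4 cells held 31, 27, 24 and 13 of the 128 UMIs. In sham blood 2 cells held 7 and 6 of the 18 UMIs, and these cells had only 2424 and 599 UMIs without haemoglobin. S100a9, the other calprotectin subunit, had 24 and 20 UMIs in 14 and 5 cells and fell short of the minimum for a measured gene. Lcn2, lipocalin 2, which binds bacterial iron carriers, had 53 and 12 UMIs in 15 and 5 cells (126 and 28.6 CPM, log2 ratio 2.14, 1.22 to 3.18). Il1r2, the decoy receptor that binds IL-1 without signalling, had 79 and 18 UMIs in 18 and 10 cells (188 and 43.0 CPM, log2 ratio 2.13, 1.38 to 2.96). In metastasis blood 6 cells had 5 or more Il1r2 UMIs, and no sham cell had more than 3. Saa3, serum amyloid A3, had 205 UMIs in 12 metastasis cells and 0 UMIs in the 53 sham cells, at least 68.2-fold higher when the sham count is set to its floor of 3. Its UMIs were uneven, with 136 in 1 cell and at most 19 in any other, and without that cell 69 UMIs in 11 cells remained.

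These genes met in part in the same cells. Of the 15 metastasis cells with an Lcn2 UMI, 11 also had S100a8, 14 had Chil3 and 7 had Il1r2. Chil3, a chitinase-like secreted protein of neutrophil-like monocytes, was far more abundant, at 2238 CPM in metastasis and 1492 CPM in sham monocytes (log2 ratio 0.59, 0.44 to 0.73), in 51 of 66 and 34 of 53 cells. Its UMIs per cell ran from 0 through a median of 9 to 81 in metastasis and from 0 through 6 to 48 in sham blood, so the 2 groups of cells overlapped widely.

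S100a8 and Lcn2 also differed in blood cells that should lack them. Blood B cells, which do not make either protein, held S100a8 at 23.2 CPM in metastasis and 2.32 CPM in sham blood, with a UMI in 6.28% and 1.01% of B cells. Their median depth was 2503 and 3606.5 UMIs. The B cell level was below that of the monocytes in each library, 23.2 against 305 CPM and 2.32 against 43.0 CPM, but its log2 ratio of 3.32 was as large. Lcn2 in B cells was at 3.54 and 0.135 CPM, Chil3 at 21.5 and 0.135 CPM, and Il1r2 at 3.54 and 1.92 CPM. Saa3 stood at 0.643 and 0.236 CPM in B cells and at 38.7 and 1.54 CPM in neutrophils, below the 488 CPM of metastasis monocytes. Of the metastasis UMIs behind that level, 136 lay in 1 cell with 3 of the 6 marker genes. Among cells with at least 4 of these genes, Saa3 stood at 186 CPM in metastasis and 0 CPM in sham monocytes. In the 38 metastasis and 28 sham monocytes without any Retnlg or Csf3r UMI, S100a8 had 63 UMIs in 11 cells against 0 UMIs, Lcn2 had 18 UMIs in 8 cells against 0, and Il1r2 had 63 UMIs in 11 cells against 5 in 4. The rule itself reads Retnlg and Csf3r, so the cut can shape these counts. With 0, 1 and 2 of their UMIs, S100a8 stood at 0, 49.5 and 174 CPM in sham monocytes. In metastasis monocytes it stood at 285, 361 and 0 CPM, the last from 2 cells. The part of free RNA in the ratios over all cells was not tested. The weight of single cells also mattered: as a mean of each cell's CPM the log2 ratio was 0.38 for S100a8 and 0.64 for Il1r2, with intervals that spanned equality (-0.34 to 1.18 and -0.11 to 1.47). Among cells with at least 4 of the 6 marker genes, S100a8 had 127 UMIs in 24 of 56 metastasis cells and 5 UMIs in 2 of 49 sham cells.

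**Figure D2:**
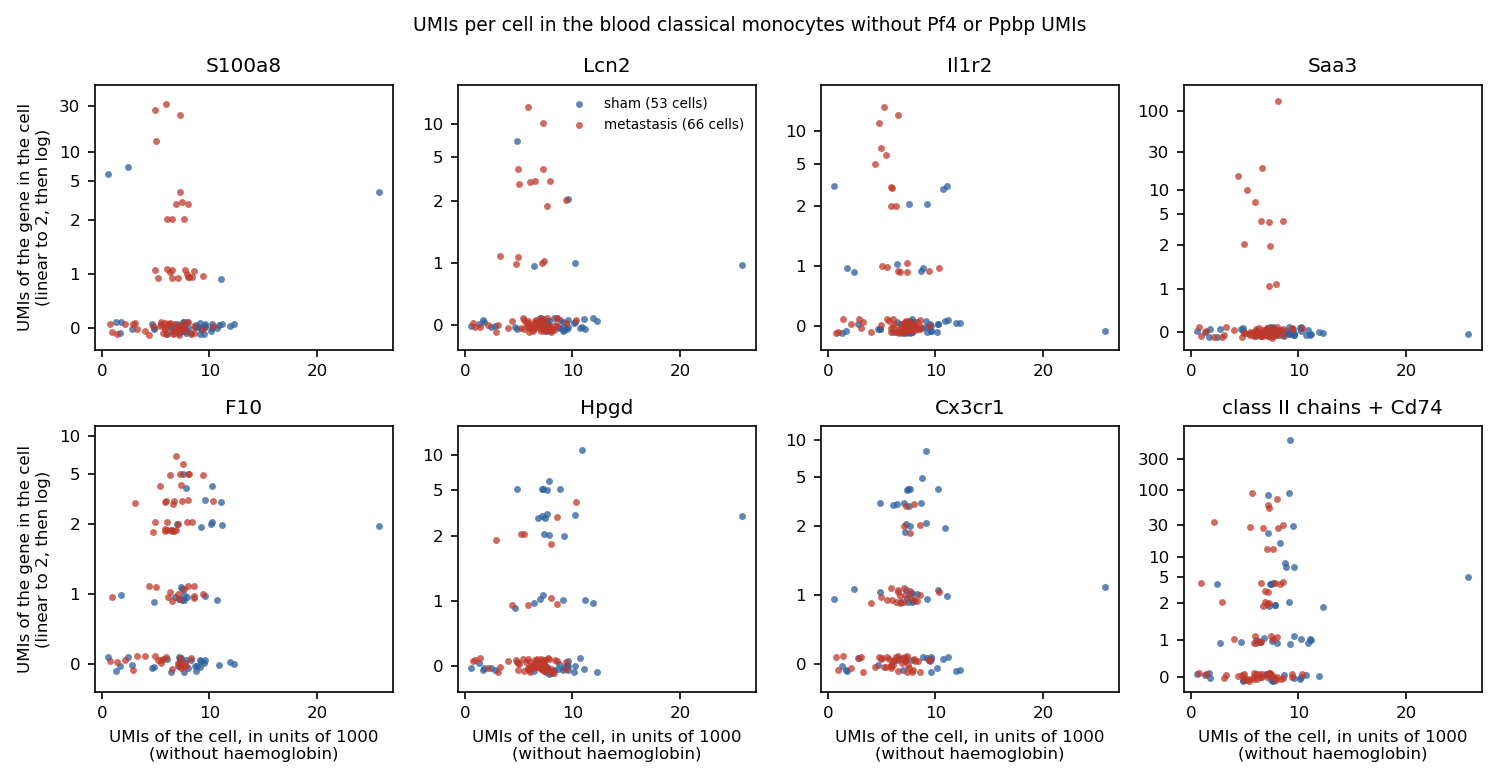
UMIs of 7 genes and of the sum of the class II chains H2-Aa, H2-Ab1 and H2-Eb1 with Cd74 in each of the 119 cells (y axis, linear up to 2 and logarithmic above, points shifted slightly for visibility) against the cell's UMIs without haemoglobin (x axis, in units of 1000), for metastasis (red) and sham (blue) blood. S100a8 was detected in 25 of 66 metastasis and 4 of 53 sham cells, Hpgd in 10 and 23, and 1 metastasis cell held 136 Saa3 UMIs.

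The DNA just before the start sites of the genes that led each direction is given here because several of them are known targets of C/EBP factors or NF-kB. The windows are the 250 bases before the RefSeq start in GRCm38.p6, read 5′ to 3′ on the strand of the gene: chr7:46715677-46715926 for Saa3 (minus strand), chr2:32387740-32387989 for Lcn2 (minus), chr3:90668821-90669070 for S100a8 (plus), chr8:13037058-13037307 for F10 (plus) and chr8:56294302-56294551 for Hpgd (plus). Capitals mark matches on either strand to a C/EBP-type motif, TTNNGNAA, or an NF-kB-type motif, GGG and CC with 5 bases of any kind between them, and no matches of the 2 motifs overlapped in these windows.
Saa3: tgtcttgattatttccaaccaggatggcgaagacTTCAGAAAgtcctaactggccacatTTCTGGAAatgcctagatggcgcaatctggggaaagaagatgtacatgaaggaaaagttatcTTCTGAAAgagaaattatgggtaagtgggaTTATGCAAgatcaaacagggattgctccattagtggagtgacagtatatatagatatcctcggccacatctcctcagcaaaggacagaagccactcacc
Lcn2: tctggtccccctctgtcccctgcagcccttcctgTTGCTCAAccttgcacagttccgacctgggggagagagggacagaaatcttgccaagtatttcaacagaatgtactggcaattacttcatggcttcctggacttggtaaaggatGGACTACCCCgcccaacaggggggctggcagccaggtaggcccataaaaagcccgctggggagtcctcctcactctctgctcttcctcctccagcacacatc
S100a8: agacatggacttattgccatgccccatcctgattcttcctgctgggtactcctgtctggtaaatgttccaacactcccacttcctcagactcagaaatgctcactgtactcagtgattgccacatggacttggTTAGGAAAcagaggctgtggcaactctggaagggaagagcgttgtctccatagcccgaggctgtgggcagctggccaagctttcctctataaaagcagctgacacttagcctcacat
F10: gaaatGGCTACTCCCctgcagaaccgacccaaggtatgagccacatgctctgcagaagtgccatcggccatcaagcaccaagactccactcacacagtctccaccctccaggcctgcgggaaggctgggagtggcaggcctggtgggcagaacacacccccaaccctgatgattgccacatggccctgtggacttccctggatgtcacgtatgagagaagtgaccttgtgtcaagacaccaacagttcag
Hpgd: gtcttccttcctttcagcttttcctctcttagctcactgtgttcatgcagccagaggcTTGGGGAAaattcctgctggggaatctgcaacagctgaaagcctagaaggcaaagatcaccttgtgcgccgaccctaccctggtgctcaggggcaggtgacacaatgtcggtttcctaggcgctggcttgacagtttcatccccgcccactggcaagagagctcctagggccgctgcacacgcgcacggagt
Saa3 had 4 matches to the C/EBP-type motif and none to the other. Lcn2 had 1 match to each, S100a8 and Hpgd 1 to the C/EBP-type motif, and F10 1 to the NF-kB-type motif. Short motifs of this kind are common: the C/EBP-type letters occurred in 36.8% and the NF-kB-type letters in 45.8% of 32851 windows of the same length. A match describes the letters only.

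Other genes on the higher side were low in each cell but spread over many cells. F10, coagulation factor X, had 110 and 45 UMIs (262 and 107 CPM, log2 ratio 1.29, 0.77 to 1.82) and was found in 44 of 66 metastasis and 24 of 53 sham cells, with at most 7 and 5 UMIs in any cell. B cells held F10 at 0.643 and 0.370 CPM. Cyp4f18, which inactivates leukotriene B4, had 75 and 29 UMIs in 42 and 20 cells (179 and 69.2 CPM, log2 ratio 1.37, 0.73 to 2.04). Man2a1, a Golgi mannosidase of N-glycan processing, was at 217 and 88.3 CPM (log2 ratio 1.29, 0.73 to 1.89). These 3 genes had similar ratios when the cell richest in each was left out of both libraries (1.36, 1.43 and 1.35). Thinned to 1000 UMIs per cell, F10 was found in 21.9% of 64 metastasis and 15.4% of 52 sham cells, a level near 1 UMI that allows no reading.

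Ctsd, the lysosomal protease cathepsin D, stood at 198 and 90.7 CPM (log2 ratio 1.12, 0.55 to 1.72), and Mt1, a metal-binding metallothionein, at 214 and 100 CPM (1.10, 0.55 to 1.66). Irf1, an interferon-induced transcription factor, stood at 105 and 43.0 CPM (1.29, 0.47 to 2.16), and Thbs1, thrombospondin 1, at 267 and 129 CPM (1.05, 0.57 to 1.55). Further genes among the 15 highest were Arid5b, Eps8, Aimp1, Zfp106, Fam172a and Ppdpf, with log2 ratios of 1.11 to 1.55. Plac8, a small cysteine-rich protein abundant in classical monocytes, had a smaller but precisely counted difference, 4560 against 2614 CPM (log2 ratio 0.80, 0.69 to 0.91). Lyz2 differed the other way (log2 ratio -0.55, -0.59 to -0.51).

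Cxcl13 and C1qb, also among the highest, came mainly from 1 barcode. All 74 UMIs of Cxcl13, a B cell-attracting chemokine, and 32 of the 45 UMIs of C1qb, a chain of complement C1q, lay in the metastasis barcode that also held 136 Saa3 UMIs. That barcode had 8082 UMIs, passed the rule with 3 of the 6 genes, and had 0 Ly6c2, 0 Ccr2 and 4 Lyz2 UMIs. Its leading genes were Cxcl13, C1qa, C1qb, C1qc, Saa3, Msr1 and Apoe, several of which mark macrophages. The macrophage markers summed to 567 CPM in metastasis and 260 CPM in sham monocytes, with 98 of the 238 metastasis UMIs in 1 cell.

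On the lower side, Hpgd, the enzyme that breaks down prostaglandins, had 19 UMIs in metastasis and 73 UMIs in sham monocytes (45.2 and 174 CPM, log2 ratio -1.95, -2.76 to -1.20). It was detected in 10 of 66 against 23 of 53 cells, and 7 sham cells but no metastasis cell had 5 or more UMIs. Itga1, the collagen-binding integrin alpha 1, had 13 and 53 UMIs in 10 and 24 cells (31.0 and 127 CPM, log2 ratio -2.03, -3.03 to -1.14). Cx3cr1, the fractalkine receptor that increases as monocytes mature, had 31 and 73 UMIs in 24 and 33 cells (73.8 and 174 CPM, log2 ratio -1.24, -1.89 to -0.61). Without the richest cell the ratios of these 3 genes were -2.05, -2.24 and -1.22. Thinned to 1000 UMIs per cell, Cx3cr1 was found in 4.69% of metastasis and 21.2% of sham cells, Hpgd in 3.12% and 13.5%, and Itga1 in 4.69% and 5.77%; the unthinned shares were 36.4% and 62.3%, 15.2% and 43.4%, and 15.2% and 45.3%. At that depth Itga1 was left in 3 cells of each library and Hpgd in 9 of 116 cells. No metastasis cell had more than 1 UMI of Hpgd or Cx3cr1 after thinning, where the highest unthinned values were 4 and 3. As for F10, the thinned shares of these 3 genes lie near 1 UMI per cell and allow no reading. Tm2d2, Stom, Trerf1, Mtmr6, Plec, Sema4d, Chd6 and Cacybp, with log2 ratios of -1.55 to -1.02, completed the named genes outside histones.

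Much of the histone and class II differences on the lower side lay in single sham barcodes. Hist1h2ap, Hist1h2ae and Hist1h1b, replication-dependent histone genes, had log2 ratios of -2.68, -2.81 and -1.64 (Hist1h4d -1.30), but 70 of 102, 50 of 63 and 45 of 59 sham UMIs lay in 1 barcode. That barcode had 25812 UMIs, the most of any of the 119 cells, 12 UMIs of Top2a and 53 of Ly6c2, and was led by S-phase and mitosis genes such as Pclaf, Top2a, Stmn1 and Pcna. Without the richest cell the ratios of these 3 genes were -1.28, -0.96 and 0.11, so Hist1h2ap was still lower, and that of Hist1h4d was -0.86. Copies of these histone genes are nearly identical, so reads may be split between them.

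The class II chains H2-Aa, H2-Eb1 and H2-Ab1, which present peptides to CD4 T cells, stood at 157, 92.9 and 198 CPM in metastasis and at 411, 303 and 372 CPM in sham monocytes (log2 ratios -1.39, -1.71 and -0.91). Another sham barcode, with 9235 UMIs, held 120 of the 172, 109 of the 127 and 104 of the 156 sham UMIs, together with 239 UMIs of Cd74, the class II chaperone, 7 of Cd209a, 17 of Ccr2 and 1 of Ly6c2. Without the richest cell in each library the log2 ratios were -0.15 (-0.75 to 0.44), 0.63 (-0.28 to 1.57) and 0.28 (-0.27 to 0.84). H2-Aa was detected in 10 of 66 metastasis and 7 of 53 sham cells.

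**Figure D3:**
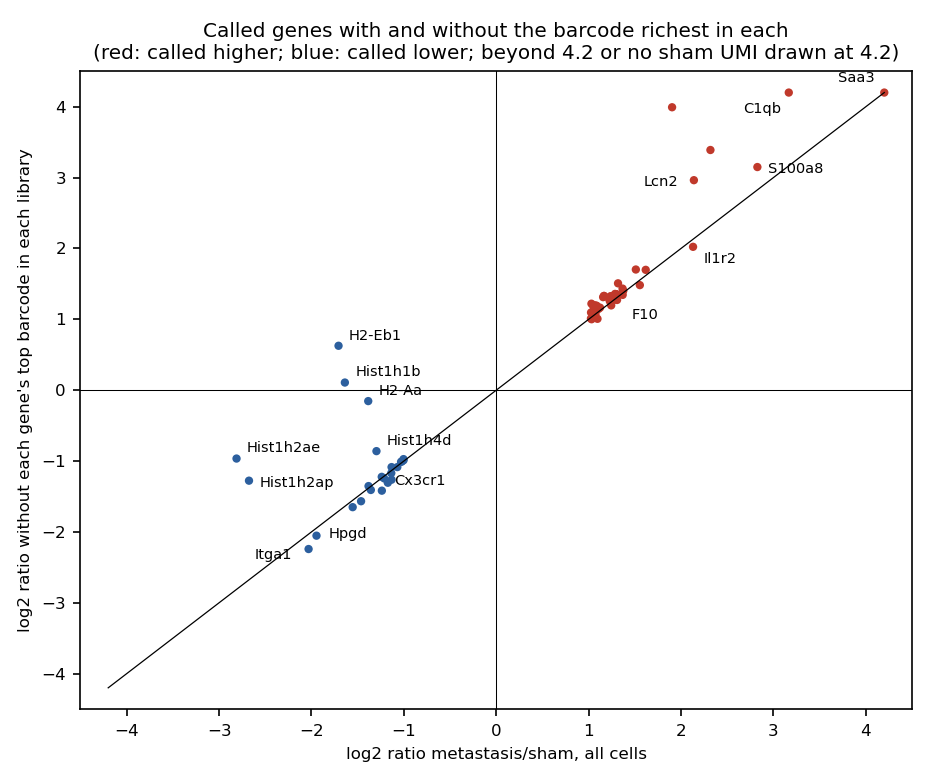
Log2 ratio of metastasis over sham blood for the called genes over all 119 cells (x axis) and after leaving out, for each gene, the cell with most of its UMIs in each library (y axis); red genes were called higher and blue genes lower, the line marks equal values, and ratios beyond 4.2 or with no sham UMI are drawn at 4.2. H2-Eb1 moved from -1.71 to 0.63 and Hist1h1b from -1.64 to 0.11, while Hpgd, Itga1, F10 and Il1r2 lay near the line; Cxcl13 has no value without its cell and is not drawn.

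Over all called genes, leaving out the richest cell gave 59 genes higher and 19 lower, of which 45 and 17 were among the 46 and 24. Leaving out the 3 barcodes described above from every gene gave 43 higher and 13 lower, 35 and 10 of them shared.

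By gene group, a gene of a list was counted where its CPM differed by a factor of 1.5 or above and the interval excluded equality. By that measure 6.57% of all measured genes were higher and 3.06% lower in metastasis monocytes. The lists were chosen with results of these data known, and many of their genes were too low to be measured, so the counts describe only those that passed. Of 26 neutrophil-like monocyte genes, 14 were measured, 4 were higher (Chil3, Lcn2, S100a8 and Saa3) and 0 lower, and the list's median log2 ratio was 0.34. The list's summed level, most of it Lyz2, went the other way, 25325 CPM in metastasis and 31603 CPM in sham monocytes. Of 14 measured genes for Fc receptors, complement and phagocytosis, 5 were higher and 0 lower, with a median of 0.46. They were C1qb, with 32 of its 45 metastasis UMIs in the barcode above, Itgam, the integrin alpha M chain (338 and 215 CPM), Fcgr1 and Fcgr2b, receptors for IgG (121 and 76.4 CPM, 257 and 143 CPM), and Lrp1, a scavenger receptor.

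Of 16 measured genes of maturation to the non-classical state, Gngt2 and Apoc2 were higher (564 and 329 CPM, 352 and 215 CPM) and Cx3cr1 was lower. Nr4a1, the transcription factor that non-classical monocytes need, stood at 152 and 181 CPM (log2 ratio -0.25, -0.75 to 0.25). Among 15 measured chemokine receptors and adhesion genes, Ccr1, a receptor for inflammatory chemokines, Itgam and Ltb4r1, the leukotriene B4 receptor, were higher, and Cx3cr1 was lower. Ccr1 had 38 and 17 UMIs in 25 and 8 cells (log2 ratio 1.16, 0.30 to 2.07), and its CPM was under 0.25 of that in another blood class. Of 6 measured chemokines and cytokines, Il1b and Thbs1 were higher and Ccl2, the ligand of Ccr2, was lower (25 and 43 UMIs, log2 ratio -0.79, -1.56 to -0.04). Without the richest cell of each gene, 1 of these 6 was higher and 0 were lower. Of 13 measured glucocorticoid-responsive genes, Il1r2, Mt1, Sgk1 and Fkbp5 were higher and Nr3c1, the glucocorticoid receptor, was lower. Fkbp5, whose protein restrains that receptor, had 16 of its 46 metastasis UMIs in 1 cell, and its log2 ratio was 0.77 with and 0.37 without the richest cells. Without the richest cell of each gene, 3 of the 13 were higher and 0 lower, so Nr3c1 was no longer called.

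Receptors for growth factors and inflammatory signals gave single genes. Csf2rb, the shared chain of the receptors for GM-CSF and IL-3, stood at 193 and 100 CPM (log2 ratio 0.94, 0.39 to 1.52), and Csf2ra, its GM-CSF-specific partner, at 257 and 169 CPM (0.60, 0.16 to 1.05). Both were higher among 12 measured survival genes, of which 0 were lower. Among 11 measured genes of the IL-1 family and the inflammasome, 2 were higher, Il1r2 and Il1b, the IL-1 beta gene. Il1b had 61 and 35 UMIs in 16 and 16 cells (log2 ratio 0.80, 0.18 to 1.44), and 0.62 without its richest cell. In sham blood Il1b stood at 83.6 CPM in these monocytes and at 5088 CPM in neutrophils, and the part of free RNA in its ratio was not tested. Without the richest cell of each gene, 1 of these 11 was higher. Il1rn, the IL-1 receptor antagonist, had 2 UMIs in metastasis and 0 in sham monocytes, Cd274, the checkpoint ligand PD-L1, had 5 and 0, and Arg1, the arginase of suppressive myeloid cells, 1 and 0. Spp1, osteopontin, had 0 UMIs in both. Trem2, a lipid-sensing receptor, was the only one of 11 measured genes of the suppressive myeloid list to be called (133 and 66.8 CPM, log2 ratio 1.00, 0.32 to 1.71).

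Lysosomal, antioxidant and metal-handling genes gave a few single genes. Of 22 measured lysosomal genes, 3 were higher, Ctsd, Ctsl and Lgmn, and 0 lower, with a median of 0.14. Of 19 measured NADPH oxidase and antioxidant genes, 2 were higher: Ncf4, a cytosolic subunit of the phagocyte oxidase, at 355 and 201 CPM, and Sod2, the mitochondrial superoxide dismutase, at 117 and 54.9 CPM. Of 9 measured metallothionein, haem and iron genes, 3 were higher, Mt1, Lcn2 and Slc11a1, a phagosomal metal transporter, and 2 without the richest cell of each gene.

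Type I interferon, class I MHC and energy-metabolism genes gave few or no calls, where 6.57% of all measured genes were higher and 3.06% lower. Lists of this length would hold few calls at that share, so the counts give no result about these groups. Of 16 measured type I interferon response genes, 0 were higher and 1 was lower, Bst2, tetherin (157 and 239 CPM, log2 ratio -0.60, -1.07 to -0.14). Without the richest cell of each gene, 0 of these 16 were higher and 0 lower. The most abundant of them, Ifitm3, had 1884 UMIs in each library. Of 8 measured interferon gamma response genes, 2 were higher, Irf1 and Ifngr1, a chain of the interferon gamma receptor (657 and 432 CPM), and 0 lower, with a median of 0.00. Of 13 measured class I MHC and peptide transport genes and 35 measured oxidative phosphorylation genes, 0 were called in either direction, with medians of 0.07 and 0.08. Of 11 measured glycolysis and hypoxia genes, 0 were called, with a median of 0.07. Among 13 measured heat shock and unfolded protein genes, Dnaja1, Hsp90aa1 and Hspa8, cytosolic chaperones, were lower (log2 ratios -0.91, -0.76 and -0.59), and Xbp1 and Sdf2l1, of the endoplasmic reticulum response, were higher (0.71 and 0.91). Without the richest cell of each gene, 2 of these 13 were lower and 2 higher. Dnaja1 and Hspa8 were also lower in B cells of metastasis blood (log2 ratios -0.81 and -0.62). Of 16 measured immediate early genes, which respond to handling, 0 were higher and 2 lower, Jund and Fosb.

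Cells that carried Pf4 or Ppbp, taken from the same 2 libraries by the same rule otherwise, showed larger differences in several of these groups. A cell needed only 1 UMI of Pf4 or Ppbp to be called platelet-carrying. Exactly 1 was found in 23 of the 126 metastasis and 21 of the 94 sham cells. S100a8 stood at 1371 and 19.8 CPM in the platelet-carrying monocytes (log2 ratio 6.11, 5.43 to 6.89) against 305 and 43.0 CPM in the negative ones. Lcn2 stood at 655 and 2.33 CPM, Il1r2 at 651 and 47.9 CPM and Chil3 at 5959 and 1506 CPM. In that class 11 of 17 measured neutrophil-like genes were higher and 2 lower, where 8.36% of its 4893 measured genes were higher and 6.54% lower. The neutrophil markers summed to 3297 and 330 CPM in the platelet-carrying monocytes, against 941 and 475 CPM in the negative ones, and their part in this result was not tested. Within metastasis blood, 9 of 17 measured neutrophil-like genes were at least 1.5-fold lower in Pf4/Ppbp-negative than in platelet-carrying monocytes, and 0 were higher, where 4.75% of all genes were lower and 3.88% higher.

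The dendritic-like genes went the other way in platelet-carrying monocytes, but not in every class. In platelet-carrying monocytes 12 of 16 measured dendritic-like genes were lower in metastasis blood and 0 higher (median -1.39). In Pf4/Ppbp-negative monocytes 3 of 11 were lower (median -0.18) and, without the richest cell, 0 of 11 (median 0.25). In blood non-classical monocytes the median log2 ratio of the 12 measured genes was 0.74, and that of all 4548 genes measured in that class was -0.018. No ratio without the richest cell is given for that class. Thinned to 1000 UMIs, its sham cells had a median of 1.5 UMIs of the list and a highest value of 62. Summed over the list, the levels were 3041 CPM in negative and 2822 CPM in platelet-carrying monocytes of metastasis blood, and 3960 and 7058 CPM in sham blood. A few cells carried much of these sums. Thinned to 1000 UMIs, the list had a median of 2 UMIs and a highest value of 72 in sham negative cells, and a median of 3 and a highest value of 48 in sham platelet-carrying cells. The sham barcode rich in class II described above is part of the 3960 CPM. Within sham blood 8 of 16 measured genes of the list were lower in the negative cells and 0 higher, where 4.1% of all genes were lower and 2.99% higher. There Cd209a, a lectin of dendritic-like monocytes, was at 52.5 CPM in negative and 186 CPM in platelet-carrying monocytes, and Flt3, a receptor of dendritic cell precursors, at 23.9 and 99.2 CPM. Cd209a was at 17.2 CPM in sham platelet barcodes.

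**Figure D4:**
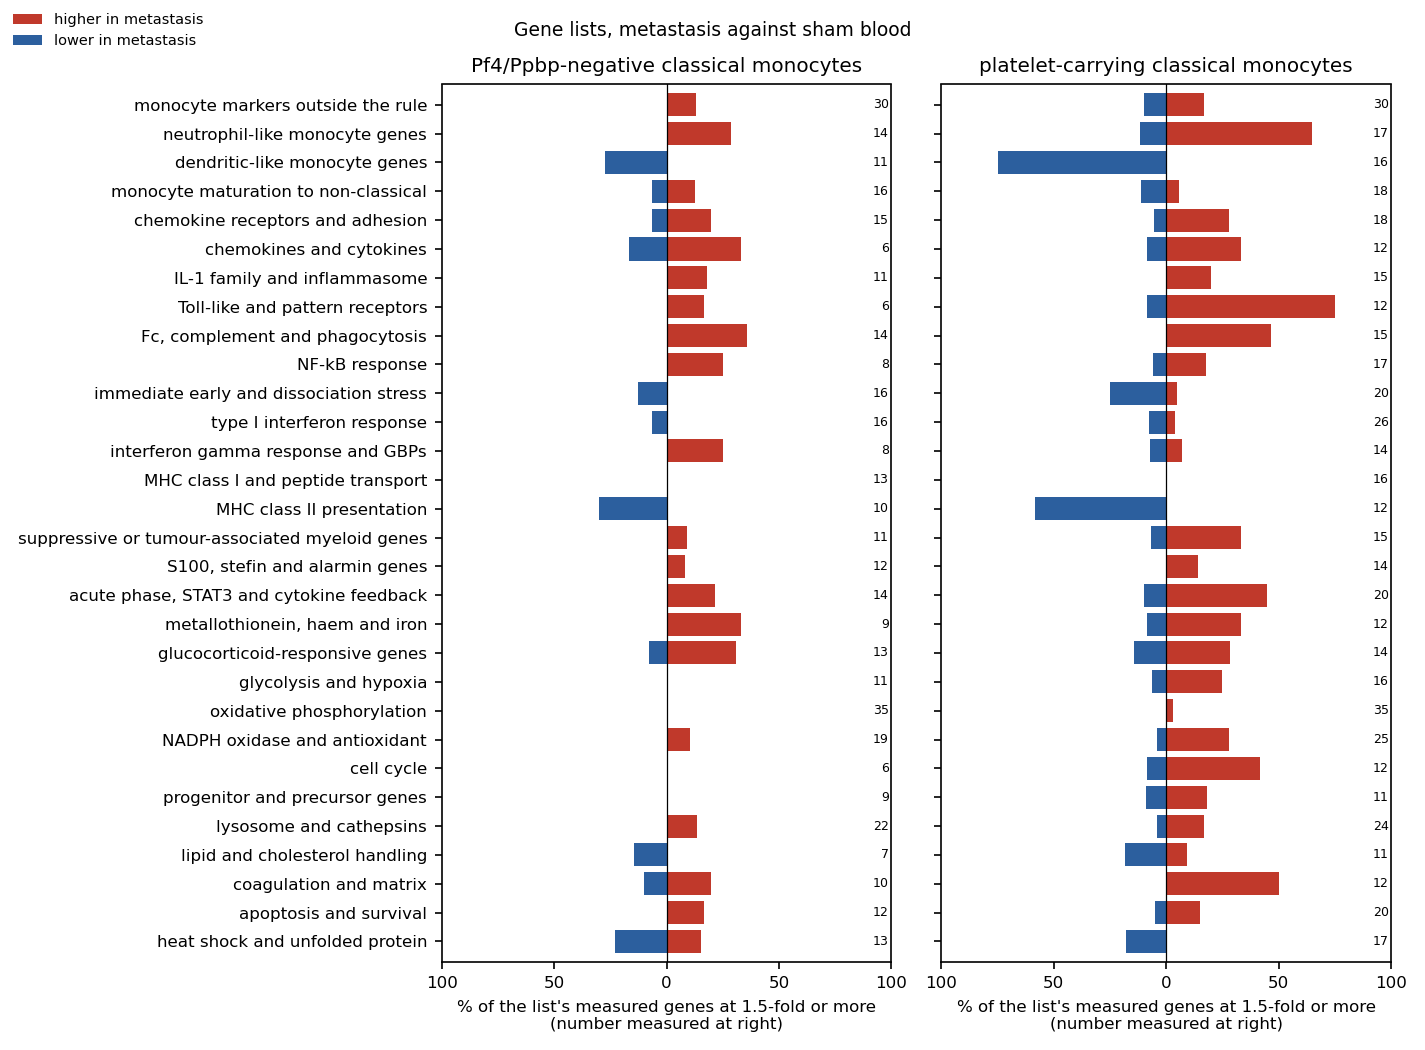
Share of each list's measured genes that were at least 1.5-fold higher (red, to the right) or lower (blue, to the left) in metastasis than in sham blood with an interval excluding equality, in Pf4/Ppbp-negative (left panel) and platelet-carrying (right panel) classical monocytes; the number of measured genes stands at the right edge. Of the dendritic-like genes 3 of 11 were lower in the left panel and 12 of 16 in the right, and of the neutrophil-like genes 4 of 14 and 11 of 17 were higher.

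Across classes and tissues, Hpgd was lower in each comparison. Its CPM in metastasis and sham was 45.2 and 174 in Pf4/Ppbp-negative monocytes, 42.5 and 152 in platelet-carrying ones, and 48.6 and 188 in lung classical monocytes, whose libraries are separate (17 and 25 UMIs; log2 ratio -1.95, -2.93 to -1.01). Lyz2 was lower in lung as well (-0.56), and Plac8 higher (0.54, 0.38 to 0.70). S100a8 had 43 and 2 UMIs in lung classical monocytes. F10, at 166 and 143 CPM in lung (log2 ratio 0.21, -0.55 to 1.04), and Il1r2, at 74.3 and 82.8 CPM (-0.16, -1.22 to 1.01), had intervals there that spanned equality. Of the 46 genes called higher in blood, 19 were measured in lung, 8 had a ratio in the same direction, 1 with an interval excluding equality, and 3 had an interval excluding equality in the opposite direction; 54.3% of all measured lung genes had a positive ratio. Of the 24 called lower, 7 were measured in lung and 5 had the same direction, 3 with an interval excluding equality. Of all measured lung genes, 45.7% had a negative ratio, and 7 genes are too few to set against that share.

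**Figure D5:**
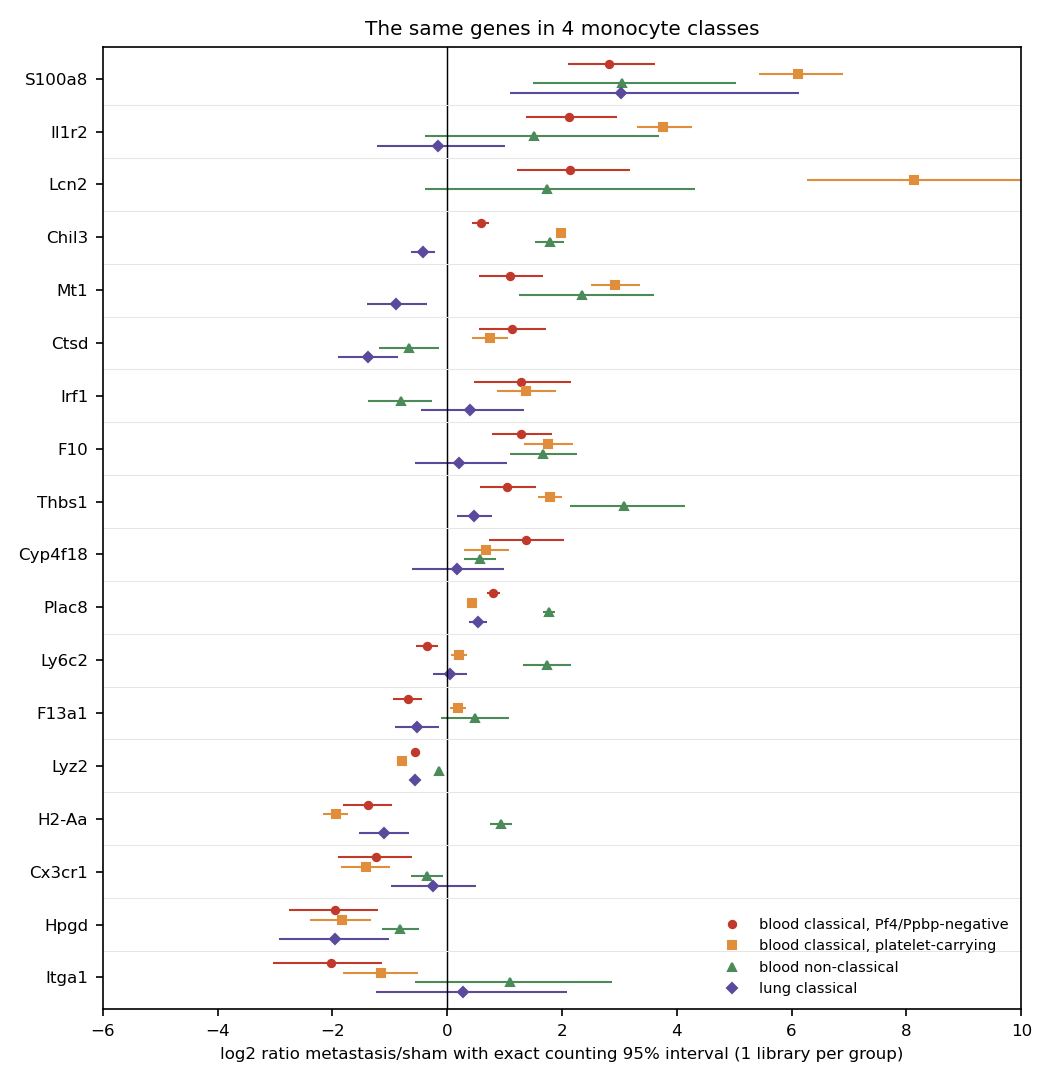
Log2 ratio of metastasis over sham (points) with exact counting 95% intervals (lines, clipped at 10) for 18 genes in Pf4/Ppbp-negative, platelet-carrying and non-classical blood monocytes and in lung classical monocytes, with 1 library per group. Lcn2 has no lung point because the sham lung class held 0 UMIs; Hpgd lay below 0 in all 4 classes, and S100a8 was 2.83 in the negative and 6.11 in the platelet-carrying monocytes.

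Among the 119 cells, thinned to 1000 UMIs each (116 were deep enough), the genes that varied most beyond counting noise were Apoe, an apolipoprotein of macrophages, Cxcl13, H2-Eb1, Saa3, H2-Aa and Cd74, after Gm42418. Their variance was 7.67 to 12.6 times their mean, and a single cell held the largest part for several of them. Apoe was spread more widely, with a UMI in 62 of the 116 cells and up to 43 UMIs in 1 cell. H2-Ab1, Lyz2 and Chil3 followed, with ratios of 7.21, 5.63 and 4.80. The summed class II chains and Cd74 had a UMI in 23.4% of metastasis and 25% of sham cells (unthinned, 48.5% and 62.3%), with a highest value of 16 and 63 UMIs. The 29 cell cycle genes summed to a median of 2 UMIs per 1000 in each library, at most 10 and 11.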

How the data were processed

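Single-cell RNA was measured in 4 droplet libraries, lung and blood of 1 metastasis and 1 sham group each. The authors deposited unnormalised UMI counts of 32285 genes in each barcode. Cell Ranger 7.0.0, build GRCm38.p6, Seurat 4.3.0.1 and R 4.3.1 are named, per the submitters' processing notes, with no role given. The labels' protocols name density centrifugation for blood, the series' design text kits for CD45 enrichment, so which step was used is unclear.

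Barcodes were chosen by the rule in the report with Python 3.11.15 (numpy 2.4.6, scipy 1.17.1, pandas 2.3.3), which was tested on simulated data. For each library and class the UMIs of all cells were added and scaled to 1000000 UMIs without haemoglobin. Ratios carry exact conditional binomial intervals; a 0 was set to a floor of 3 counts. Intervals and floors cover counting error only. Doublets were scored with Scrublet in scanpy 1.11.5 and kept; 0 metastasis and 1 sham monocyte reached a score of 0.3. Blood non-classical monocytes had Ace or Treml4. The 15 genes named in each direction needed at least 2-fold, an interval excluding equality and a CPM of at least 0.25 of that in any other blood class, to limit free RNA; this left out 13 higher and 3 lower genes, among them S100a8, Lcn2, Il1r2, Thbs1, H2-Aa and H2-Eb1. Some of these are given as members of lists: up to 4 called and the 2 most abundant genes of each of 30 lists, with Il1b, Il1rn, Il1r2, Cd274, Arg1, Spp1 and S100a8 always. The cells, lists and rules were chosen with earlier results of these data known. Alternatives covered cell filters, marker thresholds, scaling, thinning and gene minimums. Promoter sequences are from RefSeq on GRCm38.p6; all 5 genes looked up matched. Some genes that the rule names are not reported here.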

Additional observations from a re-analysis of the deposited data

Results flagged for a closer look

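Ctsd, the cathepsin D gene, was higher in metastasis than in sham blood in Pf4/Ppbp-negative monocytes (log2 ratio 1.12, 0.55 to 1.72) and lower in lung classical monocytes (-1.37, -1.89 to -0.85), and it was picked out because the intervals lie on opposite sides of equality. Mt1, a metallothionein, was likewise higher in blood (1.10, 0.55 to 1.66) and lower in lung (-0.88, -1.41 to -0.35). The difference between blood and lung was not tested for either gene, since each tissue and arm had 1 library.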

How the results depend on the processing

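No paired analysis was possible because each tissue and arm had 1 library. Of 17 alternatives for the cells, the scaling and the gene minimum, 2 were chosen after seeing the data: without each gene's richest cell, and without the 3 barcodes that hold most UMIs of a called gene. Most kept the counts of called genes within 1.5 times. With at least 2 of the 6 marker genes, 71 genes were higher and 131 lower, and the ratio of shares was 1.16. Thinning each cell to 1000 UMIs gave 3 higher and 3 lower. With no minimum beyond 1 UMI in each library 218 were higher and 135 lower, and with at least 200 UMIs 2 and 1. As a mean of each cell's CPM 44 were lower, and without the 3 barcodes 13. The ratio of shares was 2.88 among barcodes under 50% haemoglobin and 0.953 among all classical monocytes of the rule.

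Directions turned without single barcodes and under thinning. Without the richest cell, H2-Ab1 was 0.28, H2-Eb1 0.63, Hist1h1b 0.11 and the median of the class II list 0.053. Without the 3 barcodes, H2-Aa was 0.13, H2-Ab1 0.56, H2-Eb1 0.86, Hist1h1b 0.56 and that median 0.13. With at least 2 marker genes the class II median was 0.070 and Bst2 0.14, and with no Retnlg or Csf3r UMI Hist1h1b was 1.17. Thinned to 1000 UMIs, where few UMIs remain, Apoc2 was -0.12, Fcgr1 -1.04, Fosb 0.70, Hist1h1b 0.29, Ltb4r1 -0.13, Plec 0.19 and the median of the Fc and complement list -0.30. F10, Cyp4f18, Chil3, Plac8 and Il1r2 were positive and Hpgd, Itga1 and Cx3cr1 negative in all 17 alternatives run. S100a8, Lcn2 and Saa3 have no ratio where no sham UMI remains. Depth limits single genes: most called genes had under 200 UMIs over both libraries.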
